A study of Mus musculus with 13 samples.

Results

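The tubulin isotypes described here are 10 mouse genes, the beta-tubulins Tubb2a, Tubb2b, Tubb3, Tubb4b, Tubb5 and Tubb6 and the alpha-tubulins Tuba1a, Tuba1b, Tuba1c and Tuba4a. They were selected on the difference in their intensities between BCS and WT EPLMs, so the differences between these genotypes are given for them as a description, with no test. Members were all probe sets that the platform annotation gives 1 tubulin symbol of these 10, which left 18 of 45037 probe sets and 8 of the 10 genes. Tuba1b had 1 probe set and Tuba1c 2, each shared with other symbols, and both genes are not analysed here.

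BCS mice carry a human cDNA of OBF1, the B cell coactivator that the mouse gene Pou2af1 encodes, with an HA tag and in a form that makes only the nuclear p34 isoform. The transgene is driven by a heavy chain variable promoter and the Eμ enhancer, elements that start early in B lineage cells and can also be active in T cells, and which of several transgenic lines gave the arrays is not given in the sources used here. EPLMs are early bone marrow progenitors with both lymphoid and myeloid potential, sorted by criteria that include the presence of B220, c-kit and CD93 and the absence of NK1.1. The arrays compared are 3 from BCS mice and 3 from WT mice, all B6CF1 x C57BL/6 and 7 weeks old, with 1 mouse per array. The purpose was to see how the transcriptome of these progenitors differs when OBF1 is overexpressed.

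Alpha- and beta-tubulin form the dimer from which microtubules, the tracks and spindle fibres of the cell, are polymerised. Each subunit comes in several isotypes, encoded by separate genes that differ mostly in the last residues of the protein and in the tissues that use them. Lymphoid progenitors divide often, and the isotypes of dividing cells, such as Tubb5 and Tubb4b, serve their spindles, while Tubb3 and Tubb2b are best known from neurons. Tubulin mRNAs are also regulated together in the cytoplasm, where an excess of free dimers leads to their decay.

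The values are GCRMA intensities with a median of 20 on each EPLM array, and a probe set at about that level carries little signal over background. Pou2af1 itself had 10784, 10858 and 10323 on the BCS arrays and 6278, 7250 and 3400 on the WT arrays, and whether its mouse probe set reads the human transgene is not known. By quantitative PCR of the endogenous gene, the paper reports no detectable RNA in WT EPLMs and a clear rise in BCS EPLMs. The WT arrays gave signal for Pou2af1 all the same, and the reason for that difference was not tested. Of the genes of the sort, the log2 level of Ptprc, which encodes B220, fell by 0.40 (SE, the standard error, 0.07, limma adjusted p = 0.0101), while Kit and Cd93 had log2 changes of -0.01 and 0.29 and did not pass. WT replicate 2 stood apart in platelet genes, with an intensity of 2805 for Pf4 against 121 and 80.2 on the other WT arrays. The 7 Large PreB arrays of the series were left out, since their values do not follow the probe set names: between EPLM and Large PreB means r was 0.0944 over the 45037 probe sets and 0.978 over the 64 control features.

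Tubb2b, a beta-tubulin of the developing nervous system, differed most among the tubulins. Its probe set 1452679_at had intensities of 259, 163 and 148 in BCS EPLMs and of 1142, 1506 and 1867 in WT EPLMs. All 3 BCS arrays were low and all 3 WT arrays high, with no overlap. The means were 190 ± 60.1 in BCS and 1505 ± 363 in WT EPLMs (SD, n = 3 each), a log2 change of -2.99 (SE 0.25) and a level 7.97-fold lower in BCS EPLMs. Of 18193 genes measured by their brightest probe set, 31 had a lower log2 change than Tubb2b. Even the BCS intensities stood above the array median, so Tubb2b still gave signal in the transgenic progenitors.

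Tubb2a, the neighbouring gene of Tubb2b in the genome and its closest relative in sequence, was lower in the same arrays. Its probe set 1427347_s_at had 2014, 1586 and 1952 in BCS EPLMs, against 3460, 4161 and 4121 in WT EPLMs. The genotypes did not overlap, and the means of 1851 ± 232 in BCS and 3914 ± 394 in WT EPLMs (SD, n = 3 each) gave a log2 change of -1.08 (SE 0.13), a level 2.12-fold lower in BCS EPLMs. The suffix _s marks a probe set whose probes match transcripts of more than one gene, so signal of Tubb2a and of a near-identical isotype such as Tubb2b cannot be told apart on it. A second Tubb2a probe set, 1427838_at, lay near background with 16.3, 14.9 and 22.8 in BCS EPLMs and 19.4, 24.8 and 23.0 in WT EPLMs.

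Tubb6, the class V beta-tubulin, which weakens microtubules when overexpressed in hamster cells, went the other way. Its probe set 1416431_at had 104, 79.5 and 95.5 in BCS EPLMs and 38.9, 51.0 and 49.1 in WT EPLMs. Every BCS array was above every WT array, and all values were low, within 38.9 to 104 where the array median is 20. The means of 92.9 ± 12.4 in BCS and 46.3 ± 6.48 in WT EPLMs (SD, n = 3 each) gave a log2 change of 0.99 (SE 0.19), 1.99-fold higher in BCS EPLMs. Its second probe set, 1446353_at, was at background in both genotypes (18.3 ± 0.200 in BCS and 16.9 ± 2.03 in WT EPLMs).

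**Figure D1:**
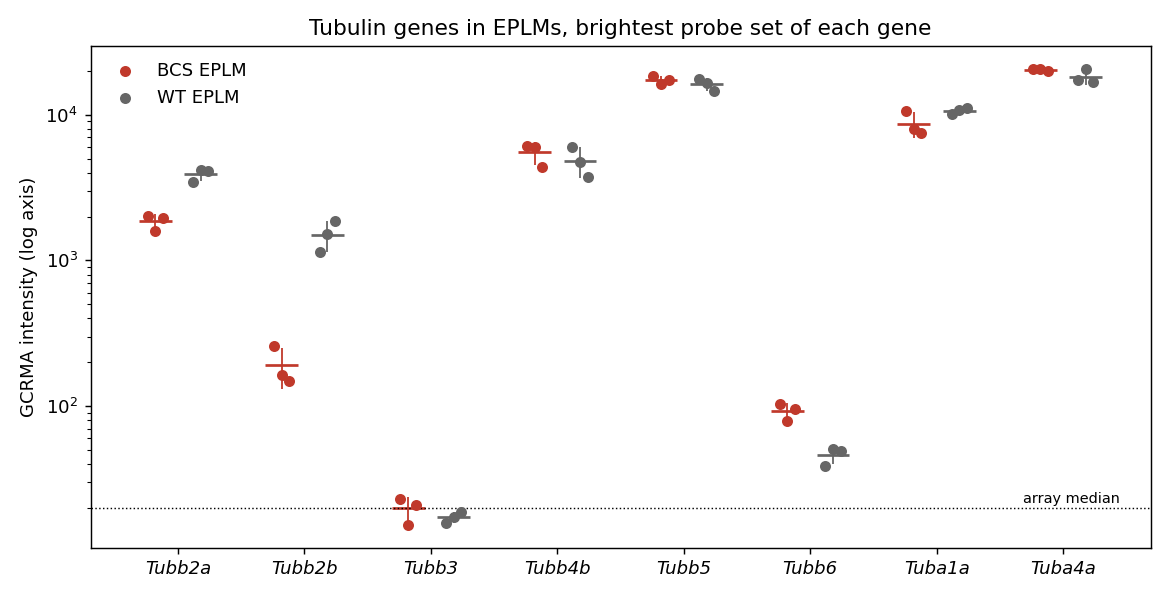
Intensities of the 8 measured tubulin genes, each by its brightest probe set, on a log axis. Points are single mice, red for BCS and gray for WT EPLMs, with horizontal bars at the mean and vertical bars of 1 SD (n = 3 each); Tubb2a and Tubb2b are lower and Tubb6 is higher on every BCS array, and Tubb3 lies at the array median of 20 (dotted line).

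Tubb5, the main beta-tubulin of most dividing cells, hardly differed. Its probe set 1416256_a_at had 18410, 16372 and 17299 in BCS EPLMs and 17618, 16482 and 14569 in WT EPLMs. The genotypes overlapped, with a log2 change of 0.10 (SE 0.08). On the other Tubb5 probe set, 1455719_at, the sign was the opposite, with 2749, 2757 and 3247 in BCS EPLMs against 3307, 3622 and 2974 in WT EPLMs and a log2 change of -0.18 (SE 0.11). The probe sets of Tubb5 thus disagreed in direction, and on both of them the genotypes overlapped.

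Tubb4b, which is made in most tissues and builds the shafts of cilia, varied more between mice of one genotype than between genotypes. Its intensities on 1423642_at were 6125, 6046 and 4364 in BCS EPLMs and 6005, 4768 and 3744 in WT EPLMs, a log2 change of 0.20 (SE 0.18). BCS replicate 3 lay below 2 of the 3 WT arrays. The 5 other Tubb4b probe sets, 4 of them with the suffix _x for probes that may also match unrelated sequence, were at or near background, with log2 changes from -0.21 to 0.36. Tubb3, the neuronal class III isotype, had 23.1, 15.3 and 21.0 in BCS EPLMs and 15.8, 17.3 and 18.8 in WT EPLMs on 1415978_at. Those values straddle the array median, so Tubb3 was at background in both genotypes.

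Promoters were read for the members that have an entry in the RefSeq table (GRCm38.p6), which are 8 of the 10 genes, Tubb2b and Tubb6 not among them. OBF1 is brought to DNA by Oct1 and Oct2 at the octamer, so the 250 bases before each gene's start were searched on both strands for the octamer ATGCAAAT, and for a TATA box with the letters TATAAA, the letters CCAAT known as the CCAAT box, and a GC box, searched as the letters GGGCGG. No tubulin promoter of the 8 held the octamer letters, which 1.6% of 32851 promoters hold. The TATA box was found in 1 of the 8, that of Tubb2a (12.4% of all promoters), the CCAAT box in 5 (33.8%) and the GC box in 6 (32.7%). A match is a description of these letters and names no bound site. Octamer-like letters, such as the paper found at Id2 and Id3, and bases further from the start were not searched. The promoters of Tubb2a and Tubb4b are shown because their layout differs. Tubb2a was lower only on its _s probe set, where signal of Tubb2b cannot be told apart. The levels of Tubb4b overlapped between the genotypes. Capitals mark the matched motifs, and on the reverse strand a GC box reads CCGCCC.
Tubb2a promoter (chr13:34078009-34078258, minus strand): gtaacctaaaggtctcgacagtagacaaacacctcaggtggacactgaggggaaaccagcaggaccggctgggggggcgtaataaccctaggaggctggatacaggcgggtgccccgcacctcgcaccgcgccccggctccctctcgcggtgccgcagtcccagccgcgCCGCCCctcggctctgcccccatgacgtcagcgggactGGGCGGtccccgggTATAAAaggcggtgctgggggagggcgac
Tubb4b promoter (chr2:25224703-25224952, minus strand): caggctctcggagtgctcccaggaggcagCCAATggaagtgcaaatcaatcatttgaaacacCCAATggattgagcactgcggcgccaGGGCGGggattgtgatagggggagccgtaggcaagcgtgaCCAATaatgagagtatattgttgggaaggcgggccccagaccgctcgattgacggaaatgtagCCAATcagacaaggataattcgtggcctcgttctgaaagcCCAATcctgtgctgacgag

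In the Tubb2a promoter the TATA box begins at -29 from the start of the gene and GC boxes at -81 and -43, with no CCAAT box and a GC content of 68.4%. The Tubb4b promoter has no TATA box and 5 CCAAT boxes, beginning at -221, -188, -122, -59 and -19, with 1 GC box at -162 and a GC content of 54.4%. As many CCAAT boxes are found in 70 of the 32851 promoters (0.213%), and the median GC content of all promoters is 52.4%. CCAAT boxes are known from many genes of the cell cycle, where the factor NF-Y binds them. Both printed members were measured on a bright probe set, with overlapping genotypes for Tubb4b. That of Tubb2a was lower in BCS EPLMs but may also carry signal of Tubb2b, so a change of Tubb2a itself is not settled.

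Tuba1a, an alpha-tubulin that neurons make in large amounts, had a lower mean in BCS EPLMs, with one array of these as the exception. Its probe set 1418884_x_at had 10644, 7984 and 7449 in BCS EPLMs and 10105, 10779 and 11089 in WT EPLMs. BCS replicate 1 lay within the WT range and the other two BCS arrays below it. The means were 8693 ± 1711 in BCS and 10658 ± 503 in WT EPLMs (SD, n = 3 each), a log2 change of -0.31 (SE 0.12), which became -0.47 without BCS replicate 1. The alpha-tubulin genes of this cluster are very alike in sequence, and on a probe set with the suffix _x their signal cannot be told apart.

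Tuba4a encodes the alpha-tubulin that is made without a terminal tyrosine. On its brightest probe set, 1417373_a_at, it had 20531, 20628 and 19996 in BCS EPLMs and 17268, 20547 and 16708 in WT EPLMs. WT replicate 2 reached the BCS level and the other two WT arrays did not, with a log2 change of 0.17 (SE 0.07), or 0.26 without WT replicate 2. On 1417374_at, Tuba4a had 4608, 5683 and 4579 in BCS EPLMs and 3681, 4010 and 3407 in WT EPLMs. There the genotypes did not overlap, with a log2 change of 0.42 (SE 0.11). The remaining probe set, 1417375_at, was at background in both genotypes (16.6 ± 0.590 in BCS and 15.1 ± 1.30 in WT EPLMs).

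Over the 8 genes the log2 changes ranged from -2.99 for Tubb2b to 0.99 for Tubb6, with a median of 0.13 beside 0.01 over all 18193 genes. With limma and an adjusted p under 0.05 as the rule, 1 of the 8 genes (Tubb6) was higher and 2 (Tubb2a and Tubb2b) were lower in BCS EPLMs. Over all genes 7.85% passed, 3.15% as higher and 4.7% as lower. Since these same arrays chose the tubulins, nothing is read from that count. Of the 18 probe sets, 1 was higher and 2 were lower by the same rule, beside 2.24% and 3.25% over all probe sets (5.49% together). By gene the genotypes did not overlap for 3 of the 8, beside 28.7% of all genes. By probe set they did not overlap on 4 of the 18, beside 23.9% of all probe sets, and 7 of the 18 had both genotype means at or under the array median. Just inside that rule lay Tubb6 on 1416431_at, and just outside it Tuba4a on 1417374_at, with the log2 changes given above.

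**Figure D2:**
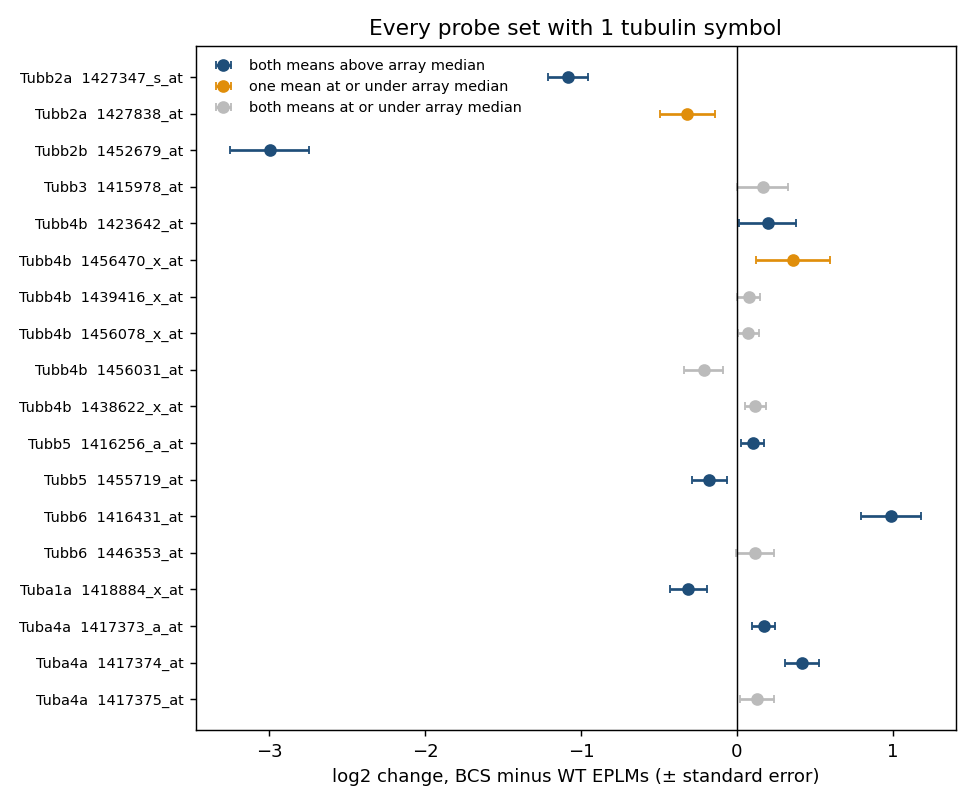
Log2 changes between BCS and WT EPLMs (BCS minus WT) for all 18 tubulin probe sets with 1 symbol, with bars of 1 standard error and colours for the level relative to the array median. Beyond the probe sets of Tubb2b at -2.99, Tubb2a at -1.08 and Tubb6 at 0.99, every other one lies between -0.32 and 0.42.

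The order of the mice was set beside their proliferation markers, a list of genes of dividing cells such as Cdk1 and Aurkb. The summed intensity of the 19 measured markers was 213942, 191492 and 191024 in BCS EPLMs and 197248, 181317 and 168538 in WT EPLMs. Tubb4b alone of the 8 tubulins ran in that same order within both genotypes, an order that 3.01% of 8274 bright genes show. Within BCS EPLMs this is an agreement of ranks alone, since the sums of BCS replicates 2 and 3 are nearly tied while their Tubb4b levels were 6046 and 4364. Tubb2b and Tuba1a had the order of the sums within BCS EPLMs and the opposite order within WT EPLMs, and Tubb3, at background, was also in the opposite order there. On BCS replicate 1, the array with the highest sum, 7 of the 8 tubulin genes had their highest BCS level, all but Tuba4a, and one of the 7 is Tubb3 at background. The same holds for 41.9% of the 8274 bright genes. These orders rest on 3 mice per genotype and are a description, and the part of proliferation in the tubulin levels was not tested.

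**Figure D3:**
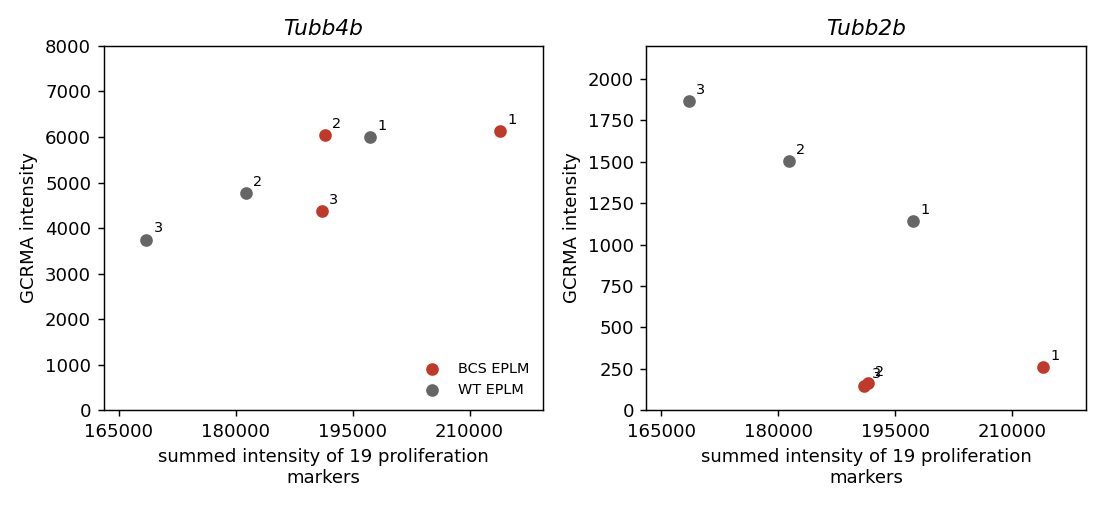
Intensity of Tubb4b (left) and Tubb2b (right) against the summed intensity of 19 proliferation markers, for each BCS (red) and WT (gray) EPLM array, numbered by replicate. In WT EPLMs the order of Tubb4b is that of the sums and the order of Tubb2b is the opposite, BCS replicates 2 and 3 have nearly the same sum but Tubb4b at 6046 and 4364, and Tubb2b lies at 259 or less on all 3 BCS arrays.

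Besides these isotypes, 8 of 10 further tubulin genes were measured, of which 1 rose and none fell with limma. Over all genes 3.15% rose and 4.7% fell by that rule. The log2 level of Tube1, the epsilon-tubulin of centrioles, rose by 0.44 (SE 0.10, limma adjusted p = 0.0376), with 2681, 2476 and 2517 in BCS EPLMs and 1975, 1761 and 1930 in WT EPLMs. These values are those of its brightest probe set. That call was lost without any 1 of the 6 arrays (adjusted p from 0.0707 to 0.126 from limma). On the other Tube1 probe sets, also above the array median, the genotypes overlapped, with log2 changes of 0.12 (SE 0.13) and 0.36 (SE 0.25). Neither passed with limma (adjusted p = 0.708 and 0.513). Tubg1, the gamma-tubulin that starts new microtubules, had a log2 change of 0.08 (SE 0.12) and overlapping genotypes. Tubb1, the beta-tubulin of platelets, had 22.5, 24.2 and 21.3 in BCS EPLMs and 21.8, 657 and 24.3 in WT EPLMs. Only WT replicate 2 stood above background for Tubb1, and that array also had Ppbp at 3613 and Vwf at 600. Among the isotypes, WT replicate 2 was the highest WT array for Tubb2a, Tubb6 and Tuba4a and lay between the other WT arrays for the rest.

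Genes that fold tubulin were examined next, since alpha- and beta-tubulin reach their fold in the CCT chaperonin, handed over by prefoldin and followed by the tubulin cofactors. Of 23 measured folding and autoregulation genes, 4 rose and none fell (adjusted p under 0.05 with limma), beside 3.15% and 4.7% of all genes. The list median of the log2 changes was 0.11. At an unadjusted p under 0.05, 8 were higher and 1 lower, beside 11.3% and 11.7% of all genes. Pfdn4, a prefoldin subunit, had 2388, 2764 and 2676 in BCS EPLMs and 1807, 1608 and 1900 in WT EPLMs, a log2 difference of 0.56 (SE 0.11, limma adjusted p = 0.0214). The CCT subunit genes Cct8, Cct7 and Cct5 rose by 0.38, 0.29 and 0.27 (adjusted p = 0.018, 0.0421 and 0.0201 from limma). For all 4 the lowest BCS array lay above the highest WT array. Over the list, BCS lay above WT for 8 of the 23 genes and below for 1. Of all 18193 genes, BCS lay above WT for 2633 and below for 2589 (28.7% together). Each of the 4 calls was lost in 4 or 5 of the 6 fits that leave out 1 array (adjusted p up to 0.148 from limma).

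Of 19 measured genes of microtubule nucleation 2 passed with limma, a share near the 7.85% of all genes. Mzt1, a small partner of the gamma-tubulin ring complex, rose, and Tubgcp5, a subunit of that complex, fell. Mzt1 had 4752, 5583 and 4897 in BCS EPLMs and 3411, 3366 and 3518 in WT EPLMs, a log2 change of 0.56 (SE 0.09, limma adjusted p = 0.0069), and kept its call without any 1 array. Tubgcp5 had 2876, 2146 and 1976 in BCS EPLMs and 4442, 3519 and 4220 in WT EPLMs, a log2 change of -0.81 (SE 0.15, limma adjusted p = 0.0167). Of 24 stabilisers and end-binding proteins 2 passed, also near that share. The doublecortin-like kinase gene Dclk2 was higher by 1.03 on the log2 scale (SE 0.25, limma adjusted p = 0.0473). Macf1, which links microtubules to actin, fell by 0.50 (SE 0.12, limma adjusted p = 0.0443). The calls of Tubgcp5, Dclk2 and Macf1 were lost in 4 or 5 of the 6 fits without 1 array (adjusted p up to 0.145 from limma).

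No gene passed with limma among 19 tubulin modification enzymes, 15 destabilisers and severing enzymes or 19 dynein and dynactin genes, with list medians of 0.05, 0.12 and -0.09 on the log2 scale. Without adjustment, 4, 5 and 2 of them had a p under 0.05 in that fit, beside 23% of all genes. With the methods' t-test after adjustment none of the 146 genes in the 8 lists around the tubulins passed, and 36 had an unadjusted p under 0.05, beside 20% of all genes. Among the 19 proliferation markers 1 passed with limma, beside 7.85% of all genes, and the list median was 0.24. That was the cyclin-dependent kinase gene Cdk1, which rose by 0.58 (SE 0.10, limma adjusted p = 0.0119). It had 7264, 7188 and 7048 in BCS EPLMs against 5538, 4784 and 4200 in WT EPLMs. Without adjustment 9 of the 19 were higher and none lower at a p under 0.05 with limma, beside the 11.3% and 11.7% of all genes. Of the 19 log2 changes 16 were positive, beside 9398 of 18193 over all genes. Tubb2b at -2.99 and Tubb2a at -1.08 lay below every called gene of these lists, but the uncalled Tubb1 at -1.62 lay below Tubb2a. As the tubulins were selected on this contrast, that order is only a description.

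**Figure D4:**
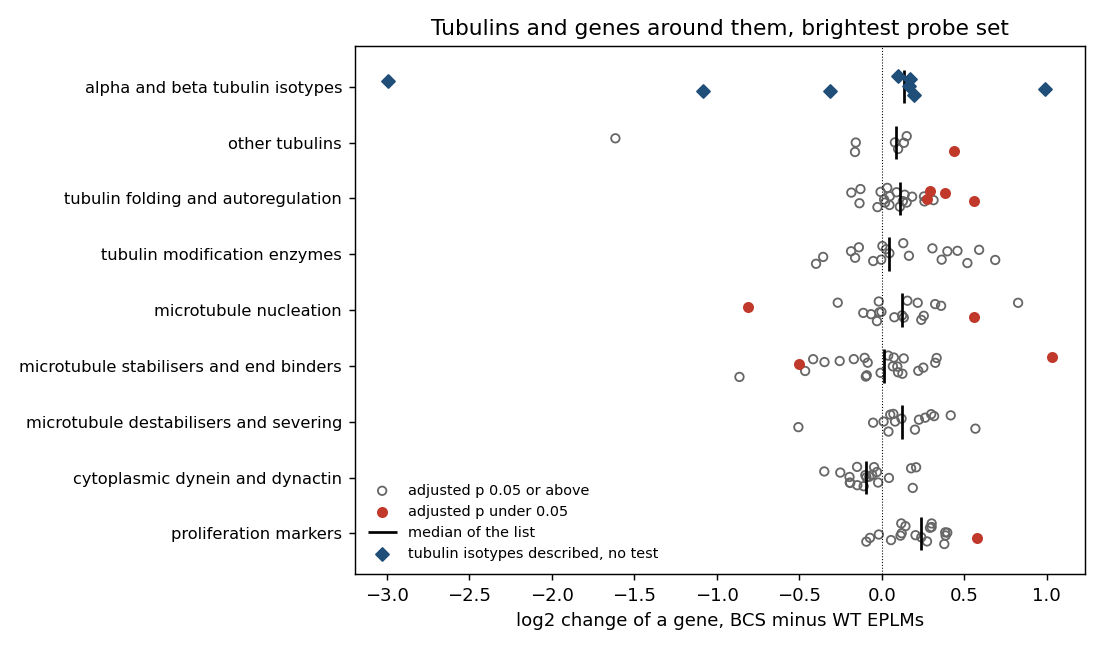
Log2 changes (BCS minus WT EPLMs) of the 8 tubulin isotypes (blue diamonds, described with no test) and of each measured gene in the lists around them, by the brightest probe set. Filled red points had an adjusted p under 0.05 with limma, open gray points did not, and short vertical lines mark list medians; the isotypes span -2.99 to 0.99 around a median of 0.13.

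Markers of other cells were read beside Tubb2b and Tubb2a. Those of plasmacytoid dendritic cells and of the B lineage differed most often with genotype, and the sums of myeloid markers overlapped. The summed intensity of 13 plasmacytoid dendritic cell markers ran from 48918 to 65490 in BCS EPLMs and from 98741 to 111968 in WT EPLMs. With limma 9 of the 13 fell and none rose. Over all genes 4.7% fell and 3.15% rose by that rule, the shares to set beside each count here. Siglech, a defining receptor of these cells, fell by 1.67 (log2), and Klk1 was at background in BCS EPLMs at 16.7 ± 2.17 (SD, n = 3). For 12 NK cell markers the sums ran from 1524 to 5285 in BCS and from 9093 to 15359 in WT EPLMs (2 fell). Of these sums Klrd1 alone gave 1087, 1306 and 2430 in BCS and 6901, 8110 and 7943 in WT EPLMs. For 10 of the 12 NK cell markers the genotypes overlapped, where 28.7% of all genes show no overlap. For 14 myeloid markers the sums ran from 10501 to 64326 in BCS and from 28034 to 96201 in WT EPLMs (1 fell). B lineage markers went the other way, with sums of 124340 to 136737 in BCS and 67418 to 94252 in WT EPLMs, and 7 of 11 rose. T cell markers summed to 280 to 364 in BCS and 366 to 881 in WT EPLMs (1 of 11 fell), and erythroid and megakaryocyte markers to 352 to 405 in BCS and 451 to 8533 in WT EPLMs, the highest in WT replicate 2, with none of 11 passing with limma and 3 lower at an unadjusted p under 0.05 (11.7% of all genes). No marker is listed at 0, as GCRMA gives no 0. The part of these cells in the lower Tubb2b and Tubb2a and the higher Tubb6 was not tested, and in sorted bulk cells fewer cells of a type and less RNA per cell cannot be told apart.

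Genes with a profile most like that of Tubb2b were sought by the root mean square difference of centred log2 values over the 6 EPLM arrays, among 13356 probe sets with 1 symbol and enough signal. The nearest were the cytokine receptor gene Il17rb at 0.108, the heparanase gene Hpse at 0.140, the cathepsin gene Ctsb at 0.155, Sh3bgr at 0.170 and Havcr1 at 0.171. Their log2 changes were -3.03, -2.87, -2.93, -3.10 and -2.85, beside -2.99 for Tubb2b. The likeness covers 6 arrays that share the genotype contrast, so it says little beyond the size of the change.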

How the data were processed

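RNA of EPLMs, sorted from 6 mice, was measured on Affymetrix Mouse 430v2 arrays. The deposited intensity values are the authors' GCRMA values on a linear scale; the version is not given in the sources used here. The labels state a labeling kit of 1 cycle and the paper's methods one of 2. EPLM arrays share nearly 1 distribution, and their number limits the precision. Log2(intensity + 1) was fitted with limma 3.58.1 in R 4.3.3 (lmFit, eBayes with trend, BCS minus WT, no covariates), adjusted by Benjamini-Hochberg over 45037 probe sets and called at an adjusted p under 0.05. A gene is represented by its brightest probe set with 1 symbol over the EPLM arrays. Symbols come from the platform annotation (34945 probe sets with 1, 932 with several, 9160 with none). Promoter sequences come from RefSeq. The fits were tested on simulated data.

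The tubulins and all gene lists were chosen with earlier results of these data known. Named genes are all members, up to 4 called genes of each list around them with the largest change, the sort genes, Pou2af1, markers and the 5 profiles nearest to Tubb2b. Aurkb, Tubg1, Tubb1, the platelet genes and the genes beside Tubb2b in the genome were named outside that rule, after their values were seen. Alternatives were another normalization, offset, variance model, filter, test, threshold or probe set per gene, arrayWeights, a replicate block and leaving out each array. Whether the same replicate numbers pair the mice is not known. One item of the sort is not reported here.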

Additional observations from a re-analysis of the deposited data

How the results depend on the processing

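Tubb2b and Tubb2a were lower in BCS EPLMs under every setting run, and Tubb6 was higher under every setting that kept it. In that order, their log2 changes without 1 array were -3.24 to -2.82, -1.17 to -0.98 and 0.87 to 1.10. Over all probe sets, 1007 were higher and 1465 lower in BCS EPLMs with limma. These counts became 114 and 153 with the methods' t-test after adjustment (299 and 576 at its own thresholds without adjustment), 421 and 757 with 2-fold medians, 363 and 694 at an adjusted p under 0.01, and 517 to 926 and 875 to 1315 without 1 array. For the tubulins, the count of 1 higher gene became 0 with the t-test, 2-fold medians, an adjusted p under 0.01, the filter on dim probe sets (which removes Tubb6) and the replicate block, and 0 to 2 without 1 array. Tubb6 did not pass without BCS replicate 1 or 3 or WT replicate 1 or 3, and Tuba4a passed beside it without WT replicate 2. The count of 2 lower genes became 0 with the t-test and 2 to 3 without 1 array, Tuba1a being the third without BCS replicate 1. At the methods' own thresholds, without adjustment, Tubb2b and Tubb2a passed. Of the tubulin probe sets, 0 were higher with the t-test, 2-fold medians and the stricter p, 0 lower with the t-test, and 0 to 2 higher and 2 to 3 lower without 1 array. With the dim filter and the replicate block 1 probe set was higher, but it was Tuba4a on 1417374_at and not Tubb6. In the lists around them, 8 higher and 2 lower genes became 5 and 1 without trend, 0 and 0 with the t-test, and 1 and 0 both with 2-fold medians and at the stricter p. The higher count was 2 with the replicate block and 12 with the dim filter. The lower count was 4 with the dim filter and 0 with the mean over probe sets. Without 1 array the higher and lower counts were 2 to 8 and 0 to 4. The median log2 change of the 8 tubulins, 0.13, became -0.0065 with the most variable probe set and 0.03 to 0.14 without 1 array. With the mean over probe sets Tubb2a and Tubb6 came to -0.70 and 0.55, since their probe sets at background enter. Same-numbered mice correlated in their deviations with r = -0.0037, 0.0726 and 0.118, and differently numbered ones with r from -0.232 to 0.144. These values give no sign of pairing by number, but with 3 mice per genotype they cannot exclude it. The paper compared littermates of the genotypes, and which arrays are littermates is not given in the sources used here. With the replicate block, the counts over all probe sets were 741 and 1179, and Cd93 passed (limma adjusted p = 0.0441). The cause of the other changes was not tested. Changes of probe sets near the array median are limited by signal over background.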

Other observations

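Tubb2a and Tubb2b are adjacent genes, and the 5 coding genes on each side of the pair were looked up by their order in the annotation. Of these 10 neighbours 9 were measured, of which 1 fell and none rose with limma (7.85% of all genes passed). Without adjustment, 2 were higher and 2 lower at a p under 0.05, beside 11.3% and 11.7% of all genes. Bphl, the hydrolase gene next to Tubb2a, had 1458, 1342 and 1452 in BCS EPLMs and 1592, 1811 and 1895 in WT EPLMs, a log2 change of -0.31 (SE 0.12, limma adjusted p = 0.181). Psmg4, a proteasome assembly gene next to Tubb2b, had 80.5, 94.5 and 105 in BCS EPLMs and 60.2, 67.2 and 77.7 in WT EPLMs, a log2 change of 0.44 (SE 0.19, limma adjusted p = 0.254). Pxdc1 had the largest difference among the 9, with 19.2, 25.9 and 55.2 in BCS EPLMs and 12.8, 15.6 and 15.1 in WT EPLMs, a log2 change of 1.02 (SE 0.32, limma adjusted p = 0.121) with the WT values at background. The transporter gene Slc22a23 fell by 0.83 (SE 0.14, limma adjusted p = 0.00985), at values near background, with means of 14.1 ± 1.74 in BCS and 25.9 ± 2.96 in WT EPLMs (SD, n = 3 each).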
